A study of Mus musculus with 62 samples.

Results

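The regions compared here carry H3K27ac, histone H3 acetylated at lysine 27, in quadriceps muscle (Quad) of mice that overexpress Pgc1a in skeletal muscle (mTg) and of wild-type mice (Wt). A region entered when a peak of the deposited mTg list and a peak of the deposited Wt list overlapped by at least 50% of the longer of both, each peak being used once. This gave 17444 regions, from 36169 mTg peaks (48.2% matched) and 49010 Wt peaks (35.6% matched). They lay nearest to 9880 genes, and 98.5% had the same nearest gene in both lists. They were measured in 4 of the 62 samples of a larger mouse muscle study, 2 H3K27ac libraries per genotype, beside 1 input library (chromatin without immunoprecipitation) per genotype.

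PGC1α, the product of Ppargc1a (Pgc1a), is a transcriptional coactivator that does not bind DNA sites itself and is brought to chromatin by partners such as the estrogen-related receptors (ERRs), the PPARs and MEF2 factors. In muscle it is known for raising mitochondrial content, fatty acid oxidation and oxidative fiber character. H3K27ac marks active promoters and enhancers, so its level around a gene is read as regulatory activity rather than as transcript.

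Both groups were C57BL/6 by their labels, and all 4 mice were sedentary. The mTg mice carry genotype PGC1a Tg(+), in which the promoter of muscle creatine kinase, a gene of muscle fibers, drives Pgc1a constitutively. According to the study's methods the animals were male transgenic and wild-type littermates, and their age is not stated in the sources used here. Whole quadriceps was used, so cells other than muscle fibers contributed chromatin. Fewer cells of a type and less mark per cell cannot be told apart in such tissue. A level below is the log2 tag value of a library, less log2 of the region's width in kb, with the library's median over matched regions set to 0, so a level of 1 is 2-fold above the median region. The width is that of the peak in its own list, so unequal widths of a matched pair enter the difference. Coordinates of regions are those of the mTg peak. A difference is the mTg mean minus the Wt mean on this log2 scale, with its standard error from 2 libraries per group. A region was called higher or lower when this difference passed 2-fold and the libraries of the groups did not overlap. The lists were normalized separately and 2 against 2 libraries cannot go below an exact two-sided permutation p of 0.333, so no difference was tested.

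The mTg libraries held 11658746 and 12685576 tags and the Wt libraries 14942618 and 14068601, with inputs of 8826665 and 7721156. Levels ranked alike within the mTg group (Spearman's rank correlation 0.966 across regions) and within the Wt group (0.949), and the 4 pairings between the groups gave 0.857 to 0.890. All 10 myofiber marker genes examined had matched regions. The region at Ckm, muscle creatine kinase, stood at 2.30 and 2.33 in mTg and 1.40 and 1.29 in Wt.

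Several called regions had, in them or just beyond their edge, letters of the kind that PGC1α's partners recognise. The ERR word TCAAGGTCA was searched on both strands in the 300 bases around the strongest accessible site of a region (ATAC-seq, transposase-accessible chromatin, in control Quad). It was present in 77 of 13157 regions with such a site (0.585%), in 4 of the 191 higher regions (2.09%) and in 0 of the 282 lower regions. Those 4 higher regions were nearest to Ptpn4, Gm11351, Iqsec1 and Sdhd. The stretches without exon sequence are shown with the word in capitals, on the plus strand of mm10, so that the reverse complement stands in the Iqsec1 stretch. The Ptpn4 region held the word at 2 places, and the Iqsec1 stretch lay just beyond the edge of the acetylated region.
Ptpn4, intron, chr1:119828241-119828340: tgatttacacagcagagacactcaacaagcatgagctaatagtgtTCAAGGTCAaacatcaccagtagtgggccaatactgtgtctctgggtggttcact
Ptpn4, intron, chr1:119828425-119828524: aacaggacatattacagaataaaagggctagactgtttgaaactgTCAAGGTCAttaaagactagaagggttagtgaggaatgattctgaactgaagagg
Gm11351, intergenic, chr13:25777712-25777811: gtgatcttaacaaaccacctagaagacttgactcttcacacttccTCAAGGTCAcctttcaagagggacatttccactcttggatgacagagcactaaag
Iqsec1, intron, chr6:90737703-90737802: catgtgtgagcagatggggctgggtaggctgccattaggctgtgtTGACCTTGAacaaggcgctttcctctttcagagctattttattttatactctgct

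The Ptpn4 region had levels of 0.14 and 0.26 in mTg and -0.76 and -1.01 in Wt. At Gm11351 they were 0.39 and 0.23 against -1.49 and -0.89, and at Iqsec1, an exchange factor for ARF proteins, 1.64 and 1.34 against -0.14 and -0.02. Sdhd, a membrane subunit of succinate dehydrogenase, stood at 1.47 and 1.36 in mTg and 0.41 and 0.38 in Wt. By the rule for calls, no mTg library overlapped a Wt library at any of the 4. Over all 77 regions with the ERR word the median difference was 0.25, with 56 above 0, against a median of 0.01 over all 13157 regions with an accessible site. Calls were not used to choose these 77 regions, but the words were chosen with earlier results known. Neither the 4 higher regions nor the median of the 77 were looked at with the input subtracted.

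Among 17444 matched regions, 334 (1.91%) were higher and 476 (2.73%) were lower in mTg, at 320 and 428 genes, of which 11 had both. At any size of difference the groups did not overlap in 11069 regions (63.5%), beside 47.3% to 54.6% for pairs of wild-type groups given below. Differences ran from -2.17 to 2.42, with an interquartile range over all regions of -0.35 to 0.29. The rank correlation of the group means was 0.891 (SD over single-library pairings 0.0172). Peaks of mTg and Wt had median widths of 1440.5 and 1386 bp at higher regions and 1354.5 and 1513.5 bp at lower regions.

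**Figure D1:**
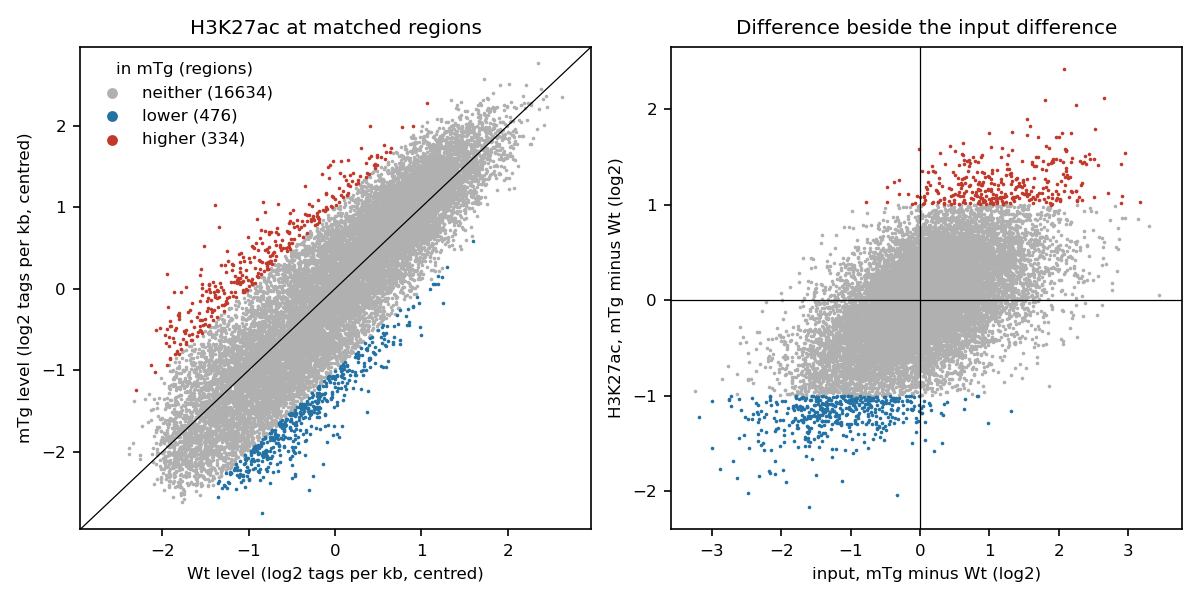
Left, mean H3K27ac level in mTg (y axis) against Wt (x axis), both in log2 tags per kb with the median matched region at 0, for 17444 regions, with a line of equality. Right, the mTg minus Wt difference of H3K27ac (log2, y axis) against that of the input (log2, x axis). Red points are the 334 regions higher in mTg, blue points the 476 lower and gray points the rest. Higher regions sit mostly to the right of 0 on the input axis and lower regions mostly to the left.

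The balance of higher and lower regions rested on how libraries were centred. Quantile normalization gave 418 higher and 278 lower, centring the difference over the level gave 427 and 247, centring on whole lists gave 162 and 1020, and leaving out the width term gave 1045 and 1206. No direction is therefore given for the genome as a whole. Without mTg replicate 2 there were 765 lower regions, and without Wt replicate 2 there were 502 higher and 759 lower. The difference also moved with the level, from a median of -0.25 in the lowest quartile of regions to 0.15 in the highest. The deposited input values moved with it too. They are taken to have been transformed together with the H3K27ac values of their list. Over all peaks of a list, input and mean H3K27ac values correlated at Pearson's r 0.976 in mTg and 0.960 in Wt. How far the transformation drew the input towards H3K27ac was not tested, so subtracting the input may also take away H3K27ac signal. The median input difference was 1.16 at higher regions, -1.21 at lower regions and 0.01 over all matched regions, with the same sign as the H3K27ac difference in 323 of 334 and 454 of 476. Across the 17444 regions the input per kb correlated with the H3K27ac level per kb (Pearson's r 0.906 in mTg and 0.809 in Wt). Subtracting it lowered the SD of the level over regions from 1.06 to 0.448 in mTg and from 0.915 to 0.571 in Wt. After that subtraction 31 of the 334 higher and 33 of the 476 lower calls held. Its part in the calls was not tested. Signs of single regions were looked at for the named called regions only, and the genes below whose sign turned with it are named.

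Other wild-type Quad groups served as a measure of how often groups without the transgene were called apart. Wt and the sedentary group Sed differed at 0.510% of 20608 matched regions, Wt and the Quad group of the muscle panel at 1.46% of 21342, and Sed and Quad at 1.32% of 21274. The mTg libraries were called apart from Sed at 4.60% of 16058 and from Quad at 5.0% of 16588. At any size of difference, libraries did not overlap at 47.3% for Wt and Sed, 54.6% for Wt and Quad and 50.6% for Sed and Quad. These shares were 60.2% for mTg and Sed and 66.9% for mTg and Quad. All of these comparisons except Sed against Quad share the mTg or the Wt libraries with the main one. Of the higher regions, 176 were matched in the Sed list, where 173 had the same sign and 70 were called, and 176 in the Quad list, where 172 had the same sign and 77 were called. Of the lower regions, 234 were matched in Sed, with 233 of the same sign and 88 called, and 252 in Quad, with 249 and 84. Median differences at the higher regions were 0.90 against Sed and 0.97 against Quad, beside 1.19 against Wt over all 334. At the lower regions they were -0.93 and -0.87, beside -1.16 over all 476. The 4 libraries were also deposited in tables normalized together, at regions that the authors had selected for differing, which is no independent evidence. These covered 214 of the higher regions, all with a joint difference above 0 (median 0.84), and 52 of the lower regions, all below 0 (median -0.70).

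Genes of fatty acid uptake and oxidation lay higher in mTg by their median. Of 74 matched regions at 38 of the 44 genes listed, 59 had a difference above 0 and the median difference was 0.33, against -0.02 over all matched regions. 5 regions (6.76%) were higher and 0 lower, against 1.91% and 2.73% of all matched regions. The median was 0.33 after centring over the level, 0.27 with the input subtracted, and 0.30 to 0.38 without any 1 library.

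Ppara encodes the fatty acid receptor PPARα, which switches on genes of fat oxidation. Its promoter region (chr15:85734181-85737481) had levels of 2.13 and 1.87 in mTg and 0.34 and 0.47 in Wt. The difference was 1.59 ± 0.14 (SE, n = 2 per group), and it was 1.85 against Sed and 1.46 against Quad. The mTg peak was 3300 bp wide and the matched Wt peak 6274 bp, and the joint difference was 0.87. A second Ppara region within the gene was also higher, and with a median of 1.34 over its 3 regions Ppara ranked first of 1714 genes with 3 or more regions, before Plbd1 (1.29) and Ccdc85a (1.08). The lowest gene medians were those of Ino80c and A530065N20Rik (-1.27 and -1.26), with Rbms3, an RNA-binding protein, at -1.14. Cd36, the fatty acid translocase, had a higher intronic region (chr5:17875043-17889765) at 0.90 and 1.17 in mTg and -0.15 and -0.44 in Wt, while its promoter region stood at 0.26 and 0.35 against -0.18 and -0.25 and was not called. Against other wild-type groups that promoter went the other way, by -0.18 for Sed and -0.55 for Quad. The Ppara promoter region and the called Cd36 region held the nuclear receptor word AGGTCA on the minus strand. They are shown with it in capitals, these genes having been chosen after their values were seen.
Ppara, promoter, chr15:85735173-85735272: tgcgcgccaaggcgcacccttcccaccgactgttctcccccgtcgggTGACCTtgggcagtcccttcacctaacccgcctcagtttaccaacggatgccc
Cd36, intron, chr5:17876823-17876922: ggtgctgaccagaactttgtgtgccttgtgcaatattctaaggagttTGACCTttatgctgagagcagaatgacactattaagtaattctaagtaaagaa

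Fabp3, the fatty acid-binding protein of muscle, had a higher region 9.96 kb upstream of its start (chr4:130296673-130300973), at 0.76 and 0.85 in mTg and -0.37 and -0.59 in Wt. Acacb, the mitochondrial acetyl-CoA carboxylase that sets malonyl-CoA, had a higher region 13.8 kb upstream at -0.14 and -0.16 against -1.43 and -1.09. By the rule for calls, all 4 libraries separated by group at both. Cpt2, an acyltransferase of mitochondrial fatty acid import, stood at 1.33 and 1.27 against 0.63 and -0.01, a difference of 1.00 that just missed the call, and the promoter of the transporter Slc27a1 stood at 1.69 and 1.59 against 0.86 and 0.67. Acadl, which starts the oxidation of long chains, had 2 regions with differences of 0.44 and 0.40. The signs at the Ppara promoter and at the called regions of Cd36, Fabp3 and Acacb were kept with the input subtracted, although none of these 4 calls was. The second called Ppara region, where the input differed by 0.22, was not looked at in this way.

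The tricarboxylic acid (TCA) cycle and respiratory chain genes also lay higher in mTg. Of 101 matched regions at 65 of 75 genes, 83 had a difference above 0, and the median was 0.42. 5 regions (4.95%) were higher and 0 lower, against 1.91% and 2.73% of all matched regions. These regions were strongly acetylated, with a median level of 0.75 in Wt, and regions of such levels had a running median difference of 0.13 over the whole matched set. After centring over the level the median was 0.36, and it was 0.25 with the input subtracted and 0.39 to 0.46 without any 1 library.

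Dlst, a subunit of the 2-oxoglutarate dehydrogenase complex, had the largest difference of the group, 1.21 ± 0.17 at an intronic region near its start (chr12:85110474-85111870). Its levels were 2.43 and 2.13 in mTg and 0.99 and 1.15 in Wt. The mTg peak was 1396 bp wide and the matched Wt peak 2208 bp. Mdh1, cytosolic malate dehydrogenase, stood at 1.93 and 2.06 against 0.87 and 0.94. Atp5g1, a subunit of the ATP synthase ring, had a higher region 17.3 kb upstream at 0.40 and 0.40 against -0.93 and -0.56. Cox4i1, a cytochrome c oxidase subunit, had a higher distal region at 0.15 and 0.87 against -0.55 and -0.53. The mTg replicates of that region lay further apart than those of the others. Uncalled members included Got2, an aspartate aminotransferase of the malate shuttle, at 1.96 and 1.74 against 0.88 and 0.90, and the promoter of Uqcrfs1, the Rieske protein of complex III, at 2.09 and 1.77 against 0.97 and 1.03. Against Sed and Quad, Got2 differed by 0.70 and 0.66 and Uqcrfs1 by 0.18 and 0.46. With the input subtracted the sign turned at Mdh1 (-0.28) and Atp5g1 (-1.08) and was kept at Dlst and Cox4i1. Sdhd, described above, was the fifth called member, and its sign with the input subtracted was not looked at.

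**Figure D2:**
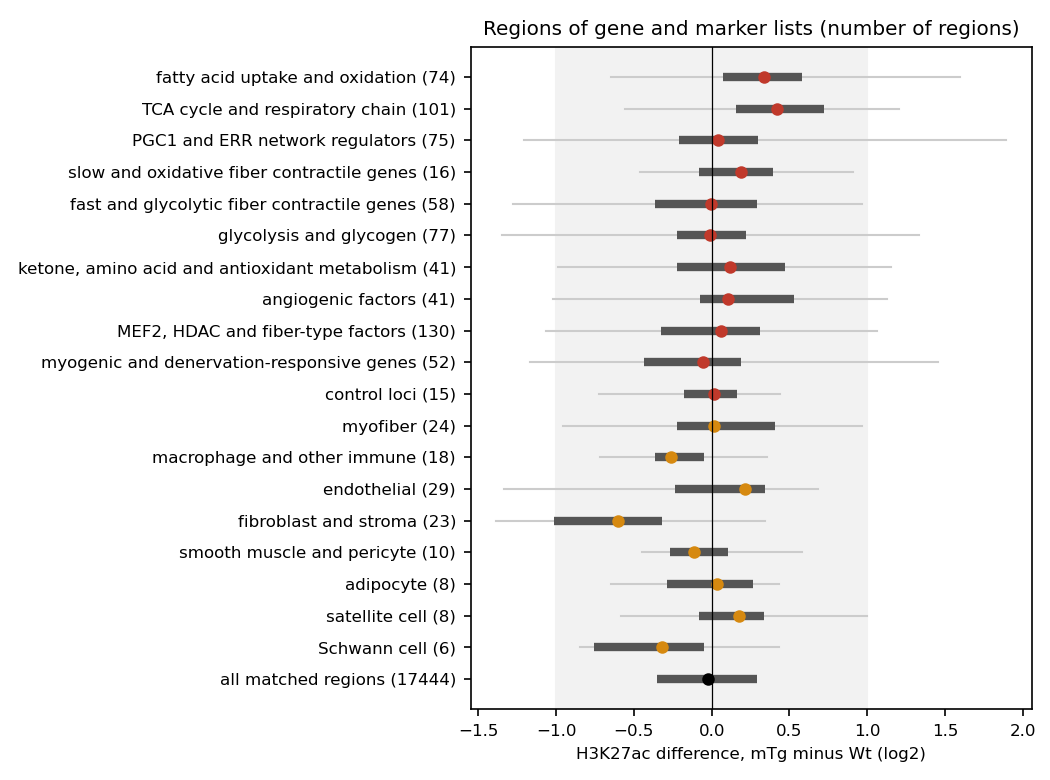
Difference in H3K27ac between mTg and Wt (log2, x axis) at the matched regions of each gene list (red), each marker list (orange) and all matched regions (black), with the number of regions in brackets. Dots are medians, thick bars the interquartile range and thin lines the lowest and highest regions (not drawn for all matched regions), and the gray band spans 2-fold either way. The fatty acid (median 0.33) and TCA cycle and respiratory chain lists (0.42) lie to the right of 0 and the fibroblast and stroma markers (-0.60) to the left.

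The endogenous Ppargc1a locus was not called. It had 8 matched regions with differences from -0.72 to 0.61. The region nearest its start (chr5:51551662-51554249) had levels of 1.31 and 0.91 in mTg and 0.56 and 0.89 in Wt, a difference of 0.39 ± 0.26 with the nearest libraries of the groups at 0.91 and 0.89. The transgene is driven from the Ckm promoter. The region at Ckm (chr7:19408470-19414274) differed by 0.97 ± 0.06 in H3K27ac and by 0.93 in the input. Against Quad the H3K27ac difference there was 0.41. The part of the transgene in these values was not tested.

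Regulators of the PGC1α and ERR network (34 of 40 genes matched) showed no common direction, with a median difference of 0.04 over 75 regions and 40 of them above 0. 4 regions (5.33%) were higher and 2 (2.67%) lower, against 1.91% and 2.73% of all matched regions, so the lower share was near that of all. The higher ones include both Ppara regions, since Ppara is on this list too. Fndc5, the precursor of the myokine irisin, had the largest difference of the list, with an intronic region beside its start (chr4:129136461-129138718) at 1.13 and 1.01 in mTg and -1.26 and -0.39 in Wt (1.90 ± 0.44). That region was 1.51 higher than in Sed and 1.77 higher than in Quad. Ncor1, a corepressor of nuclear receptors, had a higher intronic region at 0.62 and 0.60 against -0.58 and -0.37, whose sign turned with the input subtracted (-0.13). Lower regions lay at Rxra, the heterodimer partner of PPARs, at -1.71 and -2.27 against -0.70 and -0.87, and at Ppargc1b, the paralogue of Ppargc1a, at -0.79 and -0.58 against 0.31 and 0.48. The Rxra region was intergenic, 69.5 kb from the start of the gene, and its sign turned with the input subtracted (0.37). Esrra, encoding ERRα, had 1 region, at 1.61 and 1.46 against 1.38 and 1.17. Perm1, a muscle regulator downstream of PGC1α and ERR, stood at 1.38 and 1.498 against 0.65 and 0.98. At Esrrg, encoding ERRγ, the 3 regions differed by -0.67 to 0.42. Opa1, of mitochondrial fusion, stood at 1.11 and 0.80 against 0.17 and 0.18.

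Among contractile genes 0 regions were higher and 2 lower, against 1.91% and 2.73% of all matched regions. Of 16 regions at 10 of 20 slow and oxidative fiber genes 0 were called, with a median of 0.19 that was -0.093 with the input subtracted, and Myh7 had no matched region. Mb, myoglobin, had the largest difference among them, at 1.52 and 1.45 in mTg and 0.54 and 0.61 in Wt (0.91 ± 0.05). Of 58 regions of fast and glycolytic fiber genes 0 were higher and 2 (3.45%) lower, with a median of -0.01. The 2 lower regions were at Jph2, which joins the membranes of the calcium release unit (chr2:163352262-163356891), at -0.79 and -1.10 against 0.64 and 0.03, and at Mylk2, skeletal myosin light chain kinase (chr2:152898356-152900292), at -0.65 and -0.72 against 0.45 and 0.72. The Mylk2 sign turned with the input subtracted (0.13). Upstream of Myh4, the IIb myosin heavy chain of fast glycolytic fibers, levels were 0.54 and 0.38 in mTg and 1.17 and 1.18 in Wt, a difference of -0.71 ± 0.08. There the difference was -0.20 against Sed and -0.84 against Quad. The IIa gene Myh2 stood at -0.28 and -0.25 against -0.42 and -0.49, and the IIx gene Myh1 at -1.11 and -0.35 against -1.42 and -1.29. Pvalb and the Acta1 promoter differed by less than 0.01.

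**Figure D3:**
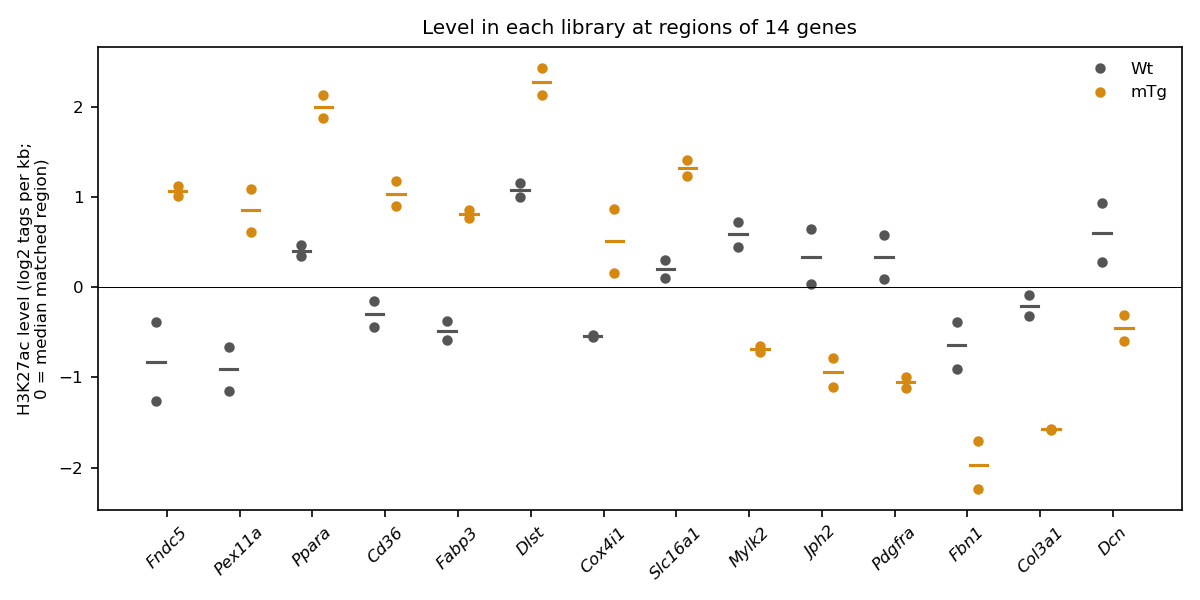
H3K27ac level (log2 tags per kb, y axis; 0 is the median matched region) at called regions of 14 genes in each Wt (gray) and mTg (orange) library. Dots are single libraries and bars the means of both. From Fndc5 to Slc16a1 both mTg libraries lie above both Wt libraries, and from Mylk2 to Dcn below, as the rule for calls requires.

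Glycolysis and glycogen genes had a median difference of -0.01 over 77 regions, with 4 higher (5.19%, against 1.91% of all matched regions). The higher regions were at Slc16a1, a lactate and pyruvate carrier (1.40 and 1.23 against 0.10 and 0.30), Ldhb, the lactate dehydrogenase subunit of oxidative tissue (0.22 and 0.26 against -0.87 and -0.68), and the glycogen-targeting subunits Ppp1r3a (-0.60 and -0.58 against -2.10 and -1.74) and Ppp1r3c (0.83 and 0.83 against -0.64 and 0.08). The Ppp1r3a and Ppp1r3c regions were intergenic, 200 kb and 37.9 kb from the start of the gene. Slc16a1 and Ldhb concern lactate rather than the steps of glycolysis. At these 4 the sign was kept with the input subtracted. Slc16a1 differed by 0.40 against Sed and 0.98 against Quad, Ldhb by 1.01 and 0.78, and Ppp1r3c by 0.31 against Quad.

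The remaining lists are set against 1.91% higher and 2.73% lower over all matched regions. Ketone, amino acid and antioxidant genes had 2 higher (4.88%) of 41 regions (median 0.12, or -0.028 with the input subtracted), at Cat, catalase, and Sod2, mitochondrial superoxide dismutase, the latter at 1.79 and 1.39 against 0.51 and 0.65 with no difference left after subtracting the input (-0.01). Sod2 was 0.30 higher than in Sed and 0.58 higher than in Quad. Angiogenic factors had 1 higher (Angpt1) and 1 lower (Pdgfb) of 41 regions (2.44% each, median 0.11), and the 5 regions of Vegfa differed by -0.22 to 0.20. MEF2, HDAC and fiber-type factors had 1 higher (0.769%) and 2 lower (1.54%) of 130 regions (median 0.06). Sox6, a repressor of slow fiber genes, held 1 of each, 1.06 and -1.03 at 2 places in the gene. Myogenic and denervation-responsive genes had 3 higher (5.77%) and 1 lower (1.92%) of 52 regions (median -0.06). Foxo3, which drives atrophy genes, had a higher intronic region (chr10:42229622-42232269) with tight replicates, 0.70 and 0.68 against -0.81 and -0.72 (1.46 ± 0.05). The other higher members were Runx1, at an intergenic region 222.6 kb upstream, and Id2, and the lower one was Smad6, an inhibitor of BMP signaling. The 15 regions of control loci had 0 calls and a median of 0.02, with differences from -0.73 (Gusb) to 0.44.

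The single largest differences lay at genes outside these lists. Nrtn, the neurotrophic factor neurturin, led the higher regions at a 632 bp region in its 5′ UTR (chr17:56756939-56757571), with levels of 1.27 and 0.79 in mTg and -1.75 and -1.03 in Wt (2.42 ± 0.43). The matched Wt peak was 1113 bp wide, and the joint difference was 0.94. Casc1, with the third largest difference, had tight replicates at 0.78 and 0.75 against -1.29 and -1.39 (2.10 ± 0.05), and was 1.64 higher than in Sed and 1.95 higher than in Quad. The promoter of Pex11a, a protein of peroxisome division, stood at 1.09 and 0.61 against -1.15 and -0.66 (chr7:79742627-79743127). Samm50, of the outer mitochondrial membrane sorting machinery, had a region within the gene at 0.28 and 0.64 against -0.89 and -1.60. Klf12 and Snap29 were higher by 1.73 and 1.82, the former at an intergenic region 198.7 kb upstream. At Hus1b, Mir1960, Pi4ka, Dnase1l3, Nav2, Cav1 and Arhgef3, with differences of 1.71 to 2.12, the sign turned with the input subtracted.

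Daam1, a formin of planar cell polarity, led the lower regions at an annotated intron 21.3 kb upstream of its start (chr12:71867840-71868556), with -2.56 and -2.37 in mTg and -0.32 and -0.28 in Wt (-2.17 ± 0.10). The region nearest to Paics, a purine synthesis enzyme (chr5:76946266-76948335), stood at -2.70 and -1.89 against -0.52 and 0.01, and the call held with the input subtracted (-1.68). Arhgap12 stood at -1.52 and -1.51 against 0.32 and 0.43. Of the other 12 of the 15 largest lower differences, only Atp6v0e kept its sign with the input subtracted.

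Among 3159 promoter regions 23 were higher (0.728%) and 18 lower (0.570%), against 1.91% and 2.73% of all matched regions. The median level of promoters was 0.82. Beside Pex11a, Nav2 and Ppara the largest higher promoters were those of Mir6392, Tmem25 and Tssc4. Mir6392 stood at 1.01 and 0.62 against -0.81 and -0.26 and was called also with the input subtracted (1.27). It was 0.32 higher than in Sed and 1.59 higher than in Quad. The largest lower promoters were those of 2210011C24Rik, Ptgs2os2, Hspa1l, Fam131a, Yipf1 and E030011O05Rik. Hspa1l, a heat shock protein of the HSP70 family, stood at -0.05 and -0.29 against 1.11 and 1.39. Its neighbors in the HSP70 cluster share sequence, and only uniquely aligned reads were kept. Fam131a, at -0.32 and -0.87 against 0.69 and 0.67, was the only one of the 6 that kept its sign and its call with the input subtracted (-1.18).

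Markers of other cell types were looked at because whole muscle was used. Fibroblast and stroma markers lay lower in mTg, with 7 of 23 regions called lower (30.4%, against 2.73% of all matched regions) and 0 higher (1.91% of all), 21 of 23 differences below 0 and a median of -0.60. It was -0.55 after centring over the level and -0.18 with the input subtracted, and -0.35 without Wt replicate 1 and -0.85 without Wt replicate 2. The summed level on the linear scale of the 23 regions was 12.5 and 13.1 in mTg and 21.8 and 17.5 in Wt. Pdgfra, the receptor that marks fibro-adipogenic progenitors, stood at -1.12 and -0.99 in mTg and 0.57 and 0.08 in Wt (chr5:75148470-75150197). Col3a1, a fibrillar collagen, had 2 lower regions, 1 of them at -1.58 and -1.57 against -0.09 and -0.32. Fbn1, fibrillin, stood at -1.71 and -2.23 against -0.38 and -0.90, and the promoter of Dcn, decorin, at -0.60 and -0.31 against 0.94 and 0.27. With the input subtracted only Col3a1 of these 4 kept its sign. Postn had no matched region. The part of stromal cells in the lower regions was not tested.

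Macrophage and other immune markers had 0 of 18 regions called and a median of -0.26, which was 0.04 after centring over the level, with summed levels of 8.91 and 9.72 in mTg and 12.02 and 9.45 in Wt. Cd68, Mrc1, Cx3cr1, Fcer1g and Aif1 had no matched region, and at Adgre1, encoding F4/80, levels were -1.80 and -1.42 against -0.73 and -1.06, while mTg was 0.15 above Sed and 0.04 above Quad there. Endothelial markers had 1 of 29 regions lower (Cldn5, 3.45% against 2.73% of all matched regions) and a median of 0.22, or 0.37 after centring over the level, with summed levels of 15.8 and 17.3 in mTg and 17.3 and 15.3 in Wt. The myofiber markers had a median of 0.01 over 24 regions with 0 called and summed levels of 40.3 and 39.1 against 35.3 and 35.3. Smooth muscle (-0.11, 10 regions), adipocyte (0.04, 8 regions), satellite cell (0.17, 8 regions) and Schwann cell markers (-0.32, 6 regions) had 0 calls. After centring over the level the smooth muscle median was 0.13 and the Schwann cell median -0.06, and with the input subtracted the satellite cell median was -0.12.

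Position and other marks of the called regions were also compared. They were distal. The median distance to a start site was 16.3 kb for higher and 29.1 kb for lower regions, against 8.64 kb for all matched regions, and 6.89% and 3.78% were promoters against 18.1%. Fewer overlapped an accessible site (57.2% and 59.2% against 75.4%), a Quad H3K4me2 peak (61.7% and 53.8% against 76.7%) or a peak of the mediator subunit MED1 (2.10% and 0.210% against 6.95%). Their mean levels, which come from the same values as the calls, were -0.28 for higher and -0.97 for lower. GC content was 47.1% and 46.9% against 49.3%. The part of the level in these shares was not tested.

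Other sequence words were counted in the same 300-base windows, on both strands. The nuclear receptor word AGGTCA, which the ERR word contains, was in 25.7% of higher, 24.5% of lower and 20.8% of all windows. The MEF2 word (CTA, 4 letters of A or T, TAG) was in 4.19%, 1.77% and 3.02%. The E-box CAGCTG, bound by myogenic factors, was in 44 of 191 higher windows, 94 of 282 lower windows (33.3%) and 25.3% of all. The TEAD word GGAATG was in 31 of 191, 65 of 282 and 14.9%, and the AP-1 word TGANTCA in 21 of 191, 44 of 282 (15.6%) and 11.1%. The E-box, TEAD and AP-1 words had their highest share in lower regions and the MEF2 and ERR words in higher regions. GC content of the windows was 53.3% in higher, 50.7% in lower and 56.0% in all. A match describes letters, not binding.

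The same regions were then read in comparisons that share none of the 4 libraries. Soleus (Sol) is a slow, oxidative muscle. Regions higher in mTg had a median Sol minus Quad difference of 0.22, with 82 of 114 above 0, against 0.01 for lower regions (73 of 145 above 0) and 0.05 for regions not called. Because lower regions have low levels, the values were also taken within quartiles of the level. In the second quartile they were 0.44 for 34 higher, -0.04 for 63 lower and 0.12 for uncalled regions, and in the third quartile 0.18 for 42, -0.46 for 17 and -0.02. Across 9498 regions the rank correlation of both differences was 0.03. Fndc5 (1.17), Samm50 (1.21) and Ldhb (1.34) were among the regions higher in both, and Paics (-1.15) and Mylk2 (-1.29) among those lower in both.

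**Figure D4:**
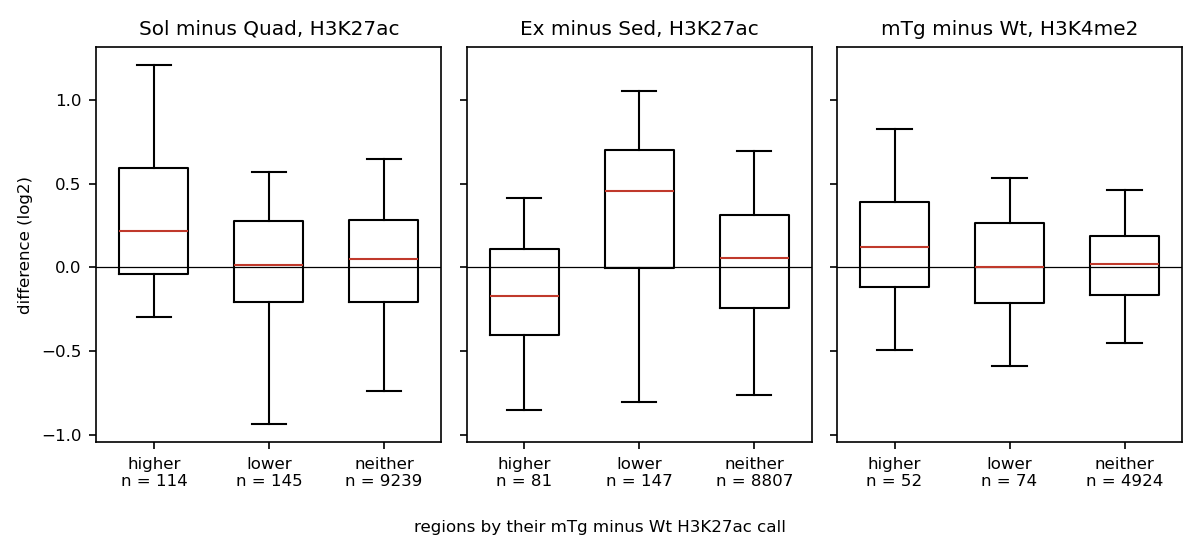
Differences (log2, y axis) in Sol minus Quad H3K27ac, Ex minus Sed H3K27ac and mTg minus Wt H3K4me2 at regions higher, lower or not called in mTg H3K27ac, with the number of regions under each box. Boxes span the interquartile range, red lines are medians and whiskers reach the 5th and 95th percentiles. In Ex minus Sed the higher regions lie below 0 (median -0.17) and the lower regions above (0.45).

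Voluntary wheel running (Ex) was compared with Sed. Regions higher in mTg had a median Ex minus Sed difference of -0.17, with 55 of 81 below 0, and lower regions a median of 0.45, with 110 of 147 above 0, against 0.05 for regions not called. The rank correlation was -0.23 across 9035 regions. The Ex minus Sed difference also moved with the level. In the lowest quartile, 65 lower regions had a median of 0.53 and uncalled regions 0.37. In the second quartile, 15 higher regions had a median of -0.32, 59 lower regions 0.45 and uncalled regions 0.22. In the third, 34 higher regions had -0.22, 22 lower regions -0.14 and uncalled regions -0.01. At Fndc5 the Ex minus Sed difference was -0.42 and at the Ppara promoter -0.16.

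H3K4me2, dimethylation of lysine 4 that marks promoters and enhancers, was measured in other libraries of both genotypes, with the same input libraries in the authors' normalization. Its median mTg minus Wt difference was 0.12 at 52 higher and -0.00 at 74 lower regions, and 0.02 elsewhere. By quartile of the level, from lowest to highest, the medians at higher regions were -0.03 (7 regions), -0.11 (17), 0.28 (15, of which 12 were above 0) and 0.33 (13, of which 12 were above 0). Of these higher regions 0 of 52, and of the lower regions 0 of 74, passed 2-fold in either direction. The rank correlation with the H3K27ac difference was 0.11 across 5050 regions. The mTg H3K4me2 libraries held 6405517 and 14127860 tags.

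Peaks outside the matched set had low levels. In mTg 8494 peaks (23.5%) and in Wt 21953 (44.8%) overlapped no peak of the other list, with median levels of -1.68 and -1.497 on the scale above. The mTg list covered 69.2 Mb and the Wt list 88.8 Mb. The strongest mTg peaks without a Wt counterpart were at the starts of Mir7075, Ehmt1, Fam228b, Homer2, Rptor and Ndrg3, and the strongest Wt peaks without an mTg counterpart were near Vps37a, Fbxl19, Prkci, Slbp, Eef2 and Nsd1. Ehmt1, a histone H3 lysine 9 methyltransferase, stood at 1.73 and 1.44 in the mTg libraries, and Rptor, the raptor subunit of mTORC1, at 1.70 and 1.22. A region unmarked in the other genotype and one that missed its peak threshold cannot be told apart from the lists.

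At the threshold itself, the higher regions nearest inside were at Mdga1, Osbpl1a and Id2 and the lower ones at Rnf214, E330011O21Rik and Rora. Those nearest outside were at Cdh15, Aida and Fez1 on the higher side and at Ctnna3, Dnmt3aos and Gm12159 on the lower. All 12 differences round to 2-fold.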

How the data were processed

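The authors aligned reads to mm10 with Bowtie, keeping unique reads and 1 tag per position, and called H3K27ac peaks across both replicates against input with HOMER (2-fold, FDR 0.05). The deposited tag columns are log2 values, taken here to be DESeq2 regularized-log values that the authors computed within each list from total-scaled tags of replicates and input. This was inferred from the methods and the values, and another transformation would change the scale of levels and folds. The adjusted p-value of each deposited peak came from the authors' test of replicates against input and served only as a stricter filter. The signal of the deposited ATAC list was pooled by the authors over 3 control libraries, and the deposited MED1 list gives a HOMER peak score. Columns of the authors' fold changes and p-values between groups were not used.

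Here each tag value was reduced by log2 of the peak's width in kb and centred on its library's median over matched regions. Peaks were matched at 50% reciprocal overlap, and overlap with other peak sets needed 1 bp. A promoter reaches from 1000 bp before to 100 bp after a start site. The main values are descriptions without a test. Matching and calls were checked on simulated lists whose paired peaks had nearly equal widths, so matched peaks of unlike width were not covered by that check. Words were searched in the 300 bases around the strongest ATAC peak of a region. In the gene lists and markers, regions were assigned by the nearest start site in the deposited annotation. Per the study's methods, 1 histone sample is the quadriceps of 1 animal.

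The members, gene lists and words were chosen with earlier results of these data known. Named were the 15 largest called differences per direction, the 8 highest and 8 lowest gene medians, up to 4 called and 2 uncalled genes per list and direction, the 6 largest called promoters per direction, the 6 strongest peaks without overlap per list, the 3 regions nearest the threshold on each side, and a set of muscle genes (Ppargc1a, Esrra, Esrrg, Perm1, myosins, Pvalb, Ckm, Acta1, Acadl, Cd36, Vegfa). The text gives some of these by name alone or not at all. Second regions of a gene, sequences and regions with the ERR word were chosen after their values were seen. Interval lists without a stated build were not used here. The lower side of the glycolysis and glycogen list is not reported here. Python 3.11.15, numpy 2.4.6, pandas 2.3.3, scipy 1.17.1, matplotlib 3.10.9 and pysam 0.24.0 were used.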

Additional observations from a re-analysis of the deposited data

How the results depend on the processing

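No paired analysis was possible because the results come from no test and nothing in the labels ties a numbered mTg library to the Wt library of the same number. Against 334 higher and 476 lower regions and a rank correlation of 0.891, the alternatives gave 62, 122 and 0.909 at 80% overlap, 676, 751 and 0.869 at 30% overlap, 1045, 1206 and 0.926 without the width term, 217, 232 and 0.826 without the lowest quartile of levels, 91, 130 and 0.833 at a peak adjusted p under 0.001, and 1702 and 2158 at 1.5-fold. Lower regions numbered 278 after quantile normalization and 247 after centring over the level. Leaving out 1 library gave 357 to 502 higher, 443 to 765 lower and a correlation of 0.864 to 0.894. Chosen after seeing the data were centring on whole lists (162 and 1020), subtracting the input (744 and 1100), widths within 10% (65 and 105), centring the difference on its own median (381 and 428), and the alternatives of list medians. At 80% overlap the signs of 3 medians turned, Sol minus Quad at lower regions (-0.079, 22 regions) and H3K4me2 at higher (-0.165, 9 regions) and lower regions (0.176, 12 regions), and the H3K4me2 rank correlation was 0.0022. The cause was not tested.

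Of 78 named called regions, 42 turned sign and 74 lost the call with the input subtracted. Among these called regions no sign turned under the other alternatives run. At 80% overlap, at the stricter peak p, without the lowest levels and against Sed or Quad, only part of them could be read. Turns at uncalled named regions were not counted. The Cd36 promoter, for example, differed by -0.18 against Sed and by -0.55 against Quad. Centring on whole lists or the own median and the width limit were not run on named regions. Lost calls numbered 15 without the width term, 13 of those read against Sed (21 kept), 19 against Quad (22 kept) and 7 to 14 without 1 library. The higher ones that turned were Hus1b (-0.51), Mir1960 (-0.18), Pi4ka (-0.70), Dnase1l3 (-0.40), Nav2 (-0.28), Cav1 (-0.26), Arhgef3 (-0.22), Tssc4 (-0.089), Mdga1 (-0.016), Id2 (-0.87), Atp5g1 (-1.08), Mdh1 (-0.28), Ncor1 (-0.13), Sod2 (-0.011), Sox6 (-0.92) and Runx1 (-0.75). The lower ones were Nedd4l (0.50), Mir7237 (0.065), Psmg2 (0.81), Hdac2 (0.51), Aig1 (0.30), Adamtsl3 (0.38), Podxl (0.42), Ankrd55 (0.23), Lrrc61 (1.14), Ccdc43 (0.44), Ntn1 (1.05), 2210011C24Rik (0.049), Ptgs2os2 (0.13), Hspa1l (0.076), Yipf1 (0.18), E030011O05Rik (1.27), Rora (0.57), Rxra (0.37), Mylk2 (0.13), Pdgfb (0.12), Tead1 (0.32), Smad6 (0.26), Cldn5 (0.29), Pdgfra (0.042), Fbn1 (0.32) and Dcn (0.041).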

Other observations

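Some genes held several called regions. These genes were chosen after their values were seen. There were 14 genes with 2 or more higher regions and 41 with 2 or more lower regions. Among the former, Ghr, the growth hormone receptor, had 2 higher of 5 regions, Tbc1d4, a Rab regulator of glucose transporter traffic, 2 of 7, and Mgll, which splits monoacylglycerol, 2 of 4. Among the latter, Rora, a nuclear receptor, had 4 lower of 16 regions, the TGFβ receptors Tgfbr2 and Tgfbr3 had 2 of 9 and 2 of 7, and the alarmin gene Il33 had 2 of 4. All 7 regions of Tgfbr3 had a difference below 0.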
